A study of Yarrowia lipolytica with 3 samples.

Results

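The genes described here were lower in Yarrowia lipolytica cells without MHY1. In cells overexpressing it they were less than 2-fold from their wild-type level, with 1 RPKM added to each value. They were chosen by measured values: a gene had to reach 1 RPKM (a read number scaled to the length of the gene and the size of the library) in at least 1 library, have log2((deletion + 1)/(wild type + 1)) of -1 or less, and have the same ratio for overexpression strictly between -1 and 1. Of 6448 identifiers per library 6035 reached 1 RPKM and were compared, and 237 met both limits, which is 3.93% of the compared genes. POX6 (YALI0E06567g), an acyl-CoA oxidase gene of peroxisomal β-oxidation, also met both limits, at 13.9, 56.8 and 34.2 RPKM in the deletion, overexpression and wild-type libraries, but was left out by name. The study measured total RNA by RNA-seq in 3 strains of background PO1a with 1 library each: an mhy1Δ strain, a strain overexpressing MHY1, and the wild type. All were grown in 50 ml of YNDC7 liquid medium with uracil at 30 °C to an OD600 of 0.8. The promoter or copy that raises MHY1, and whether each engineered strain is 1 clone, are not stated in the sources used here. With 1 library per strain there is no replicate check and no test between strains, so every difference below is one between libraries, and the 95% intervals cover counting error only.

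The product of MHY1 is a transcription factor of the C2H2 zinc-finger class. In Y. lipolytica, an oil-accumulating yeast that can grow as round cells or as hyphae, it is known for its requirement in hyphal growth. Its relatives in Saccharomyces cerevisiae, Msn2 and Msn4, are activators of stress-response genes.

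MHY1 itself (YALI0B21582g) was listed at 0 in the deletion library, at 1159 RPKM in overexpression and at 467 RPKM in wild type, as the strain labels say. The libraries implied totals of 59527000 reads for the deletion, 75306802 for overexpression and 47622181 for wild type. None of the identifiers is paired with a gene name in the files or matched the reference table, so members are given by identifier and no role can be stated for them. In these identifiers the letter after YALI0 stands for the chromosome and the number runs along it.

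In the deletion library 19 of the 237 members were under 1 RPKM and 2 were listed at 0. Another 129 were at 10 RPKM or more, 24 of these at 100 RPKM or more. The shares of all compared genes at these levels were not taken, so nothing is read from these counts. The lower quartile in the deletion library was 4.52 RPKM over members and 11.6 RPKM over all compared genes. Members were selected as low there, so nothing is read from that contrast. The members' median level was 12.1 RPKM in the deletion, 48.3 RPKM in overexpression and 35.4 RPKM in wild type. Over all compared genes these medians were 31.6, 38.0 and 34.1 RPKM. The rule used the levels of all 3 libraries, wild type in both ratios, so nothing is read from these medians either. Summed over members, RPKM came to 1.11% of the deletion library's total, 4.28% of the overexpression library's and 3.20% of the wild-type library's. Since bulk RNA is scaled to each library's total, fewer expressing cells and less RNA per cell cannot be told apart.

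Within the set the size of the loss varied widely. The members had a median log2 ratio of deletion over wild type of -1.35, with quartiles of -1.66 and -1.13, and on this scale, which has 1 RPKM added to both values, 167 of them were between 2-fold and 3-fold lower. Another 32 lay between 3-fold and 4-fold, 27 between 4-fold and 8-fold, 6 between 8-fold and 16-fold, and 5 at 16-fold or more. By plain RPKM ratios, which are larger for weak genes, 57 members were at least 4-fold lower and 7 at least 16-fold lower, a value of 0 being set at 3 reads. On the scale with 1 RPKM added, 5.83% of all compared genes were lower by 2-fold or more in the deletion library, 1.31% by 4-fold or more and 0.282% by 16-fold or more; the members were selected on this ratio, so nothing is read from that contrast. From reads recovered from the RPKM values, the counting interval of the ratio lay wholly beyond 2-fold lower for 215 members (90.7%). Over all compared genes that share was 6.36%. The members were selected on the same ratio, so nothing is read from this contrast either. The counting interval reached under 2-fold for 22 members.

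The strongest loss was that of YALI0C23452g, at 1.23 RPKM in the deletion, 1070 RPKM in overexpression and 837 RPKM in wild type. It was 683-fold lower in the deletion library (interval 590 to 794), where it had 182 reads, and in overexpression 1.28-fold above wild type (1.27 to 1.29). YALI0A08360g stood at 0.745, 230 and 130 RPKM in deletion, overexpression and wild type, 175-fold lower in the deletion (139 to 224) and 1.77-fold higher in overexpression (1.73 to 1.81). YALI0C23518g, 3 identifiers along from YALI0C23452g, was at 1.45, 147 and 88.7 RPKM, 61.2-fold lower in the deletion (50.1 to 75.6). Both of these were above wild type in overexpression, short of 2-fold.

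The other 2 of the 5 members at least 16-fold lower with 1 RPKM added were below wild type in overexpression. YALI0D17292g was listed at 0 in the deletion library and was at 49.5 RPKM in overexpression and 61.6 RPKM in wild type. A count of 0 allows up to 3 reads, or 0.171 RPKM, so against that limit it was at least 359-fold lower in the deletion than in wild type. The exact interval, which also covers the counting error of wild type, reached down to 291-fold, while overexpression was 1.24-fold lower than wild type (1.14 to 1.36). YALI0C11165g was at 0.819, 62.9 and 79.3 RPKM in deletion, overexpression and wild type, 96.9-fold lower in the deletion (83.0 to 114) and 1.26-fold lower in overexpression (1.23 to 1.29). For these 2 genes the wild-type library held the highest value of the 3. The second member listed at 0 in the deletion, YALI0A15598g, was weak throughout, with 28 reads in overexpression and 9 in wild type.

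The next members by size of loss kept a measurable level in the deletion. YALI0D15928g was at 12.5 RPKM in the deletion, 262 RPKM in overexpression and 180 RPKM in wild type, 14.4-fold lower in the deletion (13.5 to 15.3). YALI0A19250g was at 8.22, 130 and 102 RPKM, 12.4-fold lower (11.0 to 13.9). YALI0D19602g, at 2.38, 55.1 and 40.7 RPKM, was 17.1-fold lower (15.2 to 19.3) by the plain ratio. All 3 were above wild type in overexpression, by 1.46-fold, 1.28-fold and 1.35-fold. YALI0D01716g (2.23, 64.0 and 35.6 RPKM) and YALI0E08932g (2.86, 52.2 and 31.7 RPKM) complete the 10 lowest ratios, with 16.0-fold and 11.1-fold lower levels in the deletion. A weaker member, YALI0E20471g, was at 0.424, 11.7 and 8.98 RPKM, 21.2-fold lower by the plain ratio (13.3 to 35.6).

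**Figure D1:**
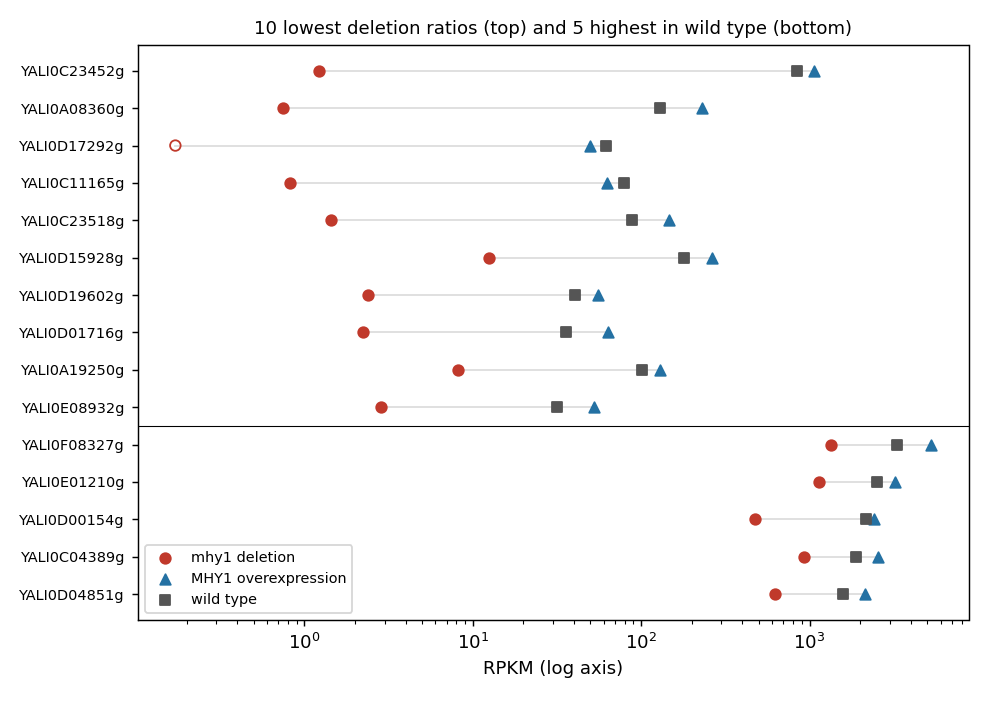
RPKM (log axis) of the 10 members with the lowest deletion ratios and, below the line, the 5 with the highest wild-type level; each row is a gene, with 1 point per library (circle, deletion; triangle, overexpression; square, wild type), and the open circle is YALI0D17292g, listed at 0 and drawn at its limit of 0.171 RPKM. The deletion point is leftmost in every row, and the overexpression and wild-type points lie close together, YALI0D17292g and YALI0C11165g being the rows with wild type furthest right.

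The 5 members with the highest wild-type level were between 2.04-fold and 4.54-fold lower in the deletion. YALI0F08327g was at 1334 RPKM in the deletion, 5247 RPKM in overexpression and 3302 RPKM in wild type, 2.48-fold lower in the deletion (2.44 to 2.51) and 1.59-fold higher in overexpression. YALI0E01210g (1136, 3213 and 2522 RPKM), YALI0C04389g (930, 2565 and 1898 RPKM) and YALI0D04851g (622, 2136 and 1588 RPKM) were 2.22-fold, 2.04-fold and 2.55-fold lower in the deletion. YALI0D00154g had the deepest loss of the 5, at 474, 2411 and 2154 RPKM, 4.54-fold lower in the deletion (4.43 to 4.66) and 1.12-fold higher in overexpression. These 5 genes made up 38.6% of the members' summed RPKM in the deletion, 35.8% in overexpression and 34.7% in wild type.

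Being within 2-fold in overexpression did not mean being level with wild type. The median log2 ratio of overexpression over wild type was 0.42 over members, with quartiles of 0.11 and 0.70, against 0.14 over all compared genes within 2-fold. It was above 0 for 197 of the 237 (83.1%) and below 0 for 40, where 66.3% of all genes within 2-fold, and 66.7% of all compared genes, were above 0. At 1.5-fold or more, 78 members were higher (32.9%) and 2 lower (0.844%), against 11.8% and 3.44% of all genes within 2-fold. A further 157 were within 1.5-fold, of which 38 were within 1.1-fold. Counting intervals lay wholly above 1 for 182 members, wholly below 1 for 30 and held 1 for 25; among all compared genes 57.5% were wholly above 1 and 26.3% wholly below. Both ratios share the wild-type library, so they are given side by side only.

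These counts depend on how the libraries are scaled, because the median of all compared genes stood at 0.16 for overexpression over wild type. With that shift removed the members' median was 0.27, with 171 of 237 above 0 (72.2%, against 50.0% of all compared genes). The number 1.5-fold or more higher was then 53 (22.4%, against 11.4%). Of the members, 171 stayed above wild type under every scaling tried, 40 stayed below and 26 changed sign. The alternative scalings all lowered the overexpression ratio, so members below wild type as deposited could only stay below.

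**Figure D2:**
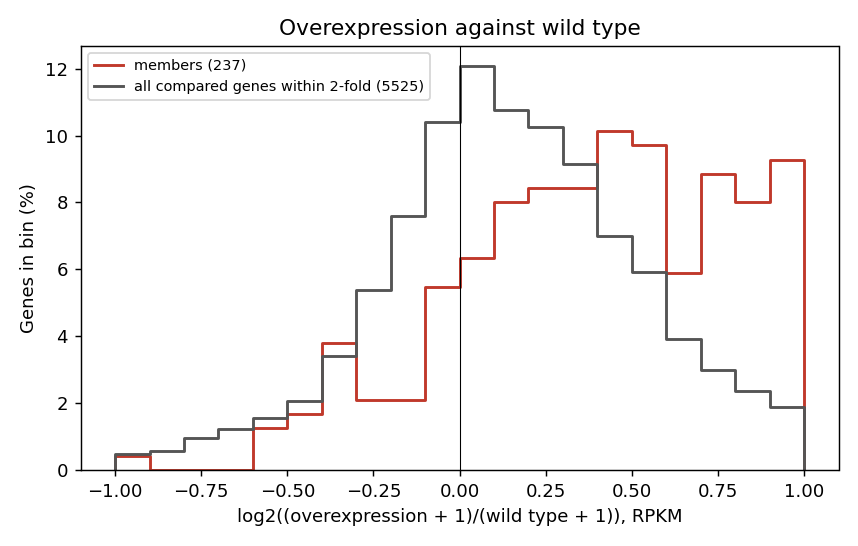
Share of genes (%) in bins of 0.1 of the log2 ratio of overexpression over wild type, for the 237 members (red) and for all 5525 compared genes within 2-fold (grey). The members' median of 0.42 lies right of the 0.14 of all genes within 2-fold, and the red line ends at the upper limit of the rule, at 1.

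With 1 RPKM added, 38 members were at least 4-fold lower, and they included 31 above wild type in overexpression, 16 of them by 1.5-fold or more, and 7 below it. Of all members 83.1% were above wild type in overexpression, 32.9% by 1.5-fold or more, and 16.9% were below it. Among all compared genes within 2-fold in overexpression 66.3% were above wild type, 11.8% by 1.5-fold or more. The counts for the 38 are a description within limits that the rule set on both ratios. Nothing particular to the more deeply lowered members is read from them. Some of the 38 were almost level between overexpression and wild type. The 3 within 1.1-fold, chosen after their values were seen, were YALI0B16324g at 18.1 RPKM in the deletion, 83.0 in overexpression and 85.8 in wild type, YALI0F26983g at 37.3, 158 and 167 RPKM, and YALI0E03388g at 131, 592 and 566 RPKM. Their levels in the deletion were 4.75-fold, 4.47-fold and 4.33-fold lower. YALI0E03388g was just above wild type in overexpression as deposited (log2 ratio 0.06) and just below it once the shift of all genes was removed (-0.09). The largest shortfall in overexpression among the 38 was that of YALI0E24673g, at 292, 894 and 1202 RPKM, 4.12-fold lower in the deletion (4.06 to 4.17) and 1.34-fold lower in overexpression (1.33 to 1.36). At the other end, YALI0B19492g was at 79.9 RPKM in the deletion, 809 RPKM in overexpression and 443 RPKM in wild type, and YALI0D15422g at 23.9, 208 and 108 RPKM, in overexpression 1.83-fold and 1.93-fold above wild type. For these last 2 the 3 libraries followed the order of MHY1 itself, deletion lowest and overexpression highest. That order is shared by all 197 members above wild type in overexpression, since the rule puts every member below wild type in the deletion.

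Overexpression against deletion, which uses no wild-type library but follows from the 2 ratios of the rule, gave a median log2 ratio of 1.78 over members, against 0.20 over all compared genes. Here 224 members (94.5%) were at least 2-fold higher, against 15.0% of all compared genes. At least 4-fold higher were 97 members (40.9%), against 4.46% of all compared genes. The rule forces at least 2-fold for every member above wild type in overexpression, so nothing is read from these shares. The lowest ratio was that of YALI0E32967g, at 228 RPKM in overexpression, 219 RPKM in the deletion and 443 RPKM in wild type. Its engineered strains were nearly equal, 1.04-fold apart (1.02 to 1.07), and both were about as far under wild type.

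**Figure D3:**
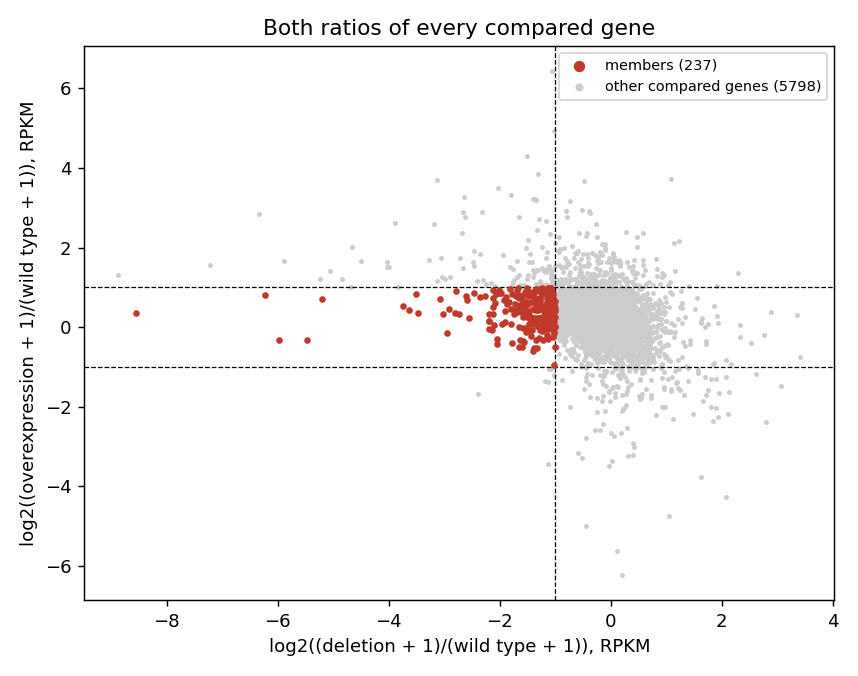
Log2 ratio of deletion over wild type (horizontal) against overexpression over wild type (vertical), 1 point per compared gene: 237 members in red, the other 5798 in grey, dashed lines at the limits of -1 and 1. The members fill the strip left of -1 and between the horizontal limits, most of them above 0 on the vertical axis, and YALI0C23452g is the red point furthest left.

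The upper limit of the overexpression ratio cut through a continuum. Just inside it were YALI0D11858g, YALI0B09009g and YALI0B03575g, with log2 ratios of 0.998, 0.998 and 0.995. YALI0E06611g, YALI0B21626g and YALI0E28548g lay just outside, at 1.0006, 1.0027 and 1.0040. On the plain RPKM scale, without the 1 RPKM added, 11 members were at 2-fold or more in overexpression. At the deletion limit, YALI0F01628g, YALI0E24695g and YALI0D11088g were just inside, at -1.0004, -1.0019 and -1.0034, and YALI0C06578g, YALI0D04114g and YALI0D22869g just outside, at -0.9997, -0.9996 and -0.9971. The lower overexpression limit was sparsely filled: the nearest members were YALI0E32967g at -0.96, YALI0E16973g at -0.59 and YALI0F11297g at -0.53, and the nearest genes beyond it were YALI0C04158g at -1.05, YALI0A20174g at -1.06 and YALI0E10417g at -1.19.

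The members were 67.3% of the 352 genes lower in the deletion by 2-fold or more; 107 others were at least 2-fold higher in overexpression and 7 were at least 2-fold lower in both engineered strains. Those 107 without MHY1, 106 genes, had medians of 1.62 RPKM in the deletion, 59.8 in overexpression and 11.8 in wild type. Wild type is the denominator of the overexpression ratio that parts them from the members, so nothing is read from how their levels differ. The genes outside the set nearest to the strongest members, by distance in the pair of log2 ratios over the 3 libraries, had to lie beyond the overexpression limit, since the rule used both ratios. YALI0A00176g, the nearest to YALI0C23452g, was at 2.15 RPKM in the deletion, 1383 in overexpression and 465 in wild type. YALI0C15268g, the nearest to YALI0A08360g, was listed at 0 in the deletion and was at 86.0 RPKM in overexpression and 36.4 RPKM in wild type.

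The position of the members was not used to choose them. They were spread over all 6 chromosome letters, from 3.23% of the compared genes of letter B (29 of 899) to 4.55% of letter C (39 of 858). Letter E held the most, 60 of 1387. Letter D held the most members at least 4-fold lower, 10 of 44, followed by letter E with 9 of 60. Of all members, 16.0% were lower by that much. The share of all compared genes of each letter lower by 4-fold or more was not taken, so nothing is read from these counts. By recovered length, which is whole or a fraction of the true length, members had a median of 1251 bp with quartiles of 771 and 1764 bp, against 1158 bp with quartiles of 699 and 1767 bp over all compared genes.

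Some members were next to each other. In identifier order 39 of the 237 (16.5%) had another member as the next compared gene on 1 side or the other, while 7.64% of all compared genes were next to a member. They formed 18 pairs and 1 run of 3. In 11 of the 18 pairs the 2 genes differed at least 5-fold in wild-type RPKM. The share for neighbouring compared genes in general was not taken, so nothing is read from this count. An example is YALI0A07755g, at 2.87, 36.2 and 22.1 RPKM in deletion, overexpression and wild type, beside YALI0A07777g at 0.123, 3.07 and 1.94 RPKM. Among genes at 10 RPKM or more in wild type, 11.6% of the members had such a neighbour, against 6.20% of all genes at that level. How reads on overlapping genes were counted, and whether by strand, is not stated in the sources used here, so reads of overlapping neighbours cannot be told apart.

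The run of 3 was YALI0E06105g, YALI0E06149g and YALI0E06171g. YALI0E06105g was at 14.5 RPKM in the deletion, 82.2 in overexpression and 44.1 in wild type, YALI0E06149g at 5.81, 32.9 and 17.8 RPKM, and YALI0E06171g at 13.8, 58.5 and 32.2 RPKM. The 3 were 3.05-fold, 3.06-fold and 2.33-fold lower in the deletion and 1.86-fold, 1.85-fold and 1.81-fold higher in overexpression, close to one another in both. The genes on either side, YALI0E06083g at 27.2, 14.7 and 21.7 RPKM and YALI0E06193g at 28.1, 39.1 and 37.7 RPKM, were within 2-fold in both. The pair with the lowest ratio was YALI0D01694g, at 0.772, 12.2 and 6.40 RPKM, and YALI0D01716g, 8.28-fold and 16.0-fold lower in the deletion and 1.91-fold and 1.80-fold higher in overexpression. YALI0F26543g (14.4, 109 and 59.8 RPKM) and YALI0F26565g (10.7, 120 and 94.2 RPKM) were also both deeply lowered, by 4.14-fold and 8.80-fold.

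Between YALI0C23452g and YALI0C23518g lay 2 genes outside the set. YALI0C23474g was at 0.658 RPKM in the deletion, 25.4 in overexpression and 8.08 in wild type, 12.3-fold lower in the deletion, and missed the set by being at least 2-fold higher in overexpression. YALI0C23496g, at 56.8, 108 and 86.7 RPKM, was within 2-fold in both. The flanking YALI0C23430g (8.78, 9.54 and 6.73 RPKM) and YALI0C23540g (67.0, 79.7 and 66.7 RPKM) were within 2-fold as well. The stretch was bounded by 2 members chosen for their low deletion ratios, so their own loss adds nothing about position. Of the 2 genes between them, YALI0C23474g was lower in the deletion by 2-fold or more and YALI0C23496g was not. Over all compared genes 5.83% were lower by that much.

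**Figure D4:**
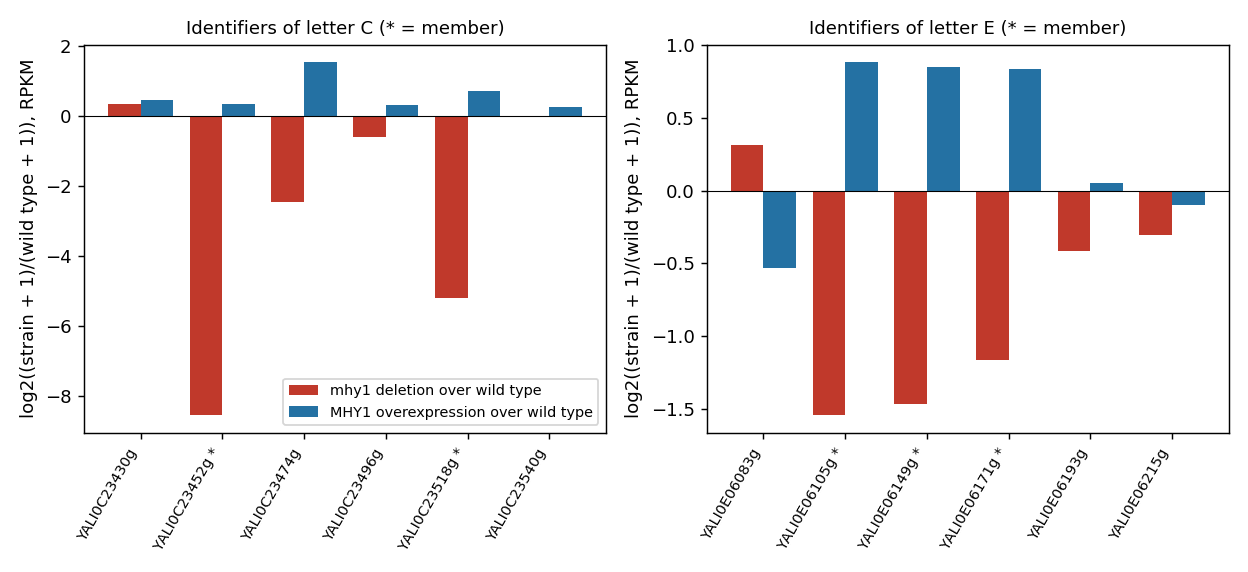
Log2 ratios of deletion over wild type (red) and overexpression over wild type (blue) for consecutive compared genes in identifier order, around YALI0C23452g and YALI0C23518g (left) and around the run of 3 members (right); stars mark members. On the left the red bars reach -8.56 and -5.20 at the members, with YALI0C23474g at -2.45 and YALI0C23496g at -0.60 between them. On the right the 3 members share similar red and blue bars, while the red bars of their neighbours lie between -0.41 and 0.32.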

How the data were processed

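RNA-seq of 3 libraries, 1 per strain, was used. Per the file headers, the authors deposited RPKM. The submitters' processing notes list the tools TopHat2 (2.1.1) and Cufflinks (2.2.1), with no role given, and a mouse build that cannot give Yarrowia identifiers; which yeast annotation was used is not stated there. The members and lists were chosen with earlier results of these data known.

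Log2 ratios were taken on RPKM + 1, so changes of weak genes are understated; counts at a fold limit use these ratios unless called plain, and folds of single genes are plain RPKM ratios. Relative depth, read totals, gene lengths in multiples of 3 and reads were recovered from whole-read steps (99.97% of values above 0 within 0.01 of a whole read), a step tested on simulated data. Recovered lengths can be a fraction of the true length, which widens intervals. Intervals are exact conditional binomial (95%) and cover counting error only. The identifiers had 0 matches in the reference table (RefSeq, assembly ASM176148v1), so no sequence is shown.

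Named by rule were MHY1, the 10 lowest deletion ratios among members at 10 RPKM or more, the 5 highest in wild type, genes nearest each limit, the run of 3 or more neighbours and the lowest pair, members at 0, and nearest genes outside. Other genes were chosen after their values were seen. Alternatives were pseudocounts of 0.1 and 5, filters, 3 scalings and other fold limits. Python 3.11.15, numpy 2.4.6, pandas 2.3.3 and scipy 1.17.1 were used.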

Additional observations from a re-analysis of the deposited data

How the results depend on the processing

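The count of 237 members stayed within 1.5 times under the pseudocounts, filters and scalings tried, between 161 (pseudocount 5, which kept 150 of the 237) and 291 (pseudocount 0.1, which kept 227); each scaling kept at least 213. It was 439 with 1.5-fold limits on both ratios and 38 with a 4-fold limit in the deletion, which act by construction. The median overexpression ratio of 0.42 was 0.33 under median of ratios scaling and 0.32 with centred ratios, with members chosen anew. The share of the 237 above wild type in overexpression, an alternative added after the data were seen, was 72.6% under median of ratios, 75.9% under upper-quartile scaling and 72.2% after centring. The share next to another member was 24.1% within 2 compared genes and 11.6% at 10 RPKM or more in wild type. No paired analysis was possible because each strain had 1 library, which also leaves no replicate to omit. Few reads limit weak members: 7 had under 20 in the deletion.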
